A study of Rattus norvegicus with 13 samples.

Results

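Hepatic mRNA of acute phase proteins and of the endotoxin coreceptor was followed in pregnant rats given ethanol, a restricted energy supply, or both. The genes were Lcn2, Cd14, Lbp, A2m, Orm1, Hp, Fga, Fgb and C3. They were represented by every probe set that the array's annotation assigns to 1 of these symbols alone: 19 of the 8740 probe sets other than controls, for 9 of the 4736 genes named on the array. Of the 19, 16 were bright enough to be tested, among 5244 tested in all. The 3 others were 2 of the 6 probe sets of A2m and 1 of the 2 of Fgb, and they are described by their signals only.

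The animals were time-mated female Sprague Dawley rats, and each of 13 liver RNA samples was hybridised to 1 one-colour Affymetrix array. EtOH-220 (n = 3) was fed a diet supplying 220 kcal per day for each kg of body weight to the power 0.75, with ethanol at 12 g per kg daily. TEN-220 (n = 3) received the same energy without ethanol. EtOH-160 (n = 4) was undernourished at 160 kcal on the same scale and was also given ethanol at 12 g per kg daily. TEN-160 (n = 3) was undernourished at 160 kcal without ethanol. All 4 groups were thus mated females of 1 strain; their ages and day of gestation are not given in the sources used here. Whether a sample came from 1 animal or from a pool is not stated in the labels, so a p-value here measures the spread between samples, which may be technical.

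The acute phase response is the liver's change in plasma protein synthesis during inflammation or injury. Cytokines of the interleukin-6 and interleukin-1 families and glucocorticoids act on hepatocytes, and the transcription factors STAT3, NF-kB and the C/EBP family raise genes such as A2m, Orm1, Hp and the fibrinogen chains. Endotoxin, the lipopolysaccharide of gut bacteria, reaches the liver by the portal vein. It is bound in plasma by the protein that Lbp encodes, passed to the coreceptor CD14 and presented to the receptor TLR4 on Kupffer cells, the macrophages of the liver.

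The signal of Lcn2 was lower, and that of Cd14 higher, on the arrays of ethanol-fed rats at both energy supplies. All 7 ethanol arrays lay below all 6 arrays without ethanol for Lcn2, and above all 6 on both Cd14 probe sets. Among all tested probe sets, 0.839% were lower and 0.686% higher without any overlap in this way. The genes were chosen with earlier results of these data known, so these shares are a description and do not measure chance. With the adjusted test, at an adjusted p under 0.05, both genes passed at 160 kcal and neither passed at 220 kcal. The interaction of ethanol with energy supply passed for neither gene, so these calls do not show an effect limited to 160 kcal. At 160 kcal the 3 Fga probe sets and 1 of the 4 tested A2m probe sets also fell with ethanol. Lbp, Orm1, Hp and Fgb passed in none of the comparisons, and 1 of the 2 C3 probe sets passed in the comparison of energy supplies without ethanol and in the interaction of ethanol with energy supply.

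The 3 arrays of TEN-160 differed from the other 10 as a group, and every comparison that uses them carries this. Their scores on the first principal component, which held 31.1% of the variance, were 31.04 to 43.11 against −13.61 to −2.98 on the others. Their ratio of the control probe sets BioDn-5 and BioDn-3, ends of a bacterial transcript added to each sample, was 0.422 to 0.497 against 0.132 to 0.210. RNA integrity, read from the ratio of the 3' to the 5' GAPDH probe set, also differed: the ratio spanned 1.038 to 1.47 in EtOH-220 against 1.525 to 2.323 in TEN-220. It spanned 1.505 to 1.726 in EtOH-160 against 1.026 to 1.242 in TEN-160. The same ratio for beta-actin spanned 1.931 to 2.179 in EtOH-220 against 1.972 to 3.002 in TEN-220. At 160 kcal it spanned 1.775 to 2.31 with ethanol against 1.91 to 2.961 without, so the groups overlapped at both energy supplies. The part of these measures in the results was not tested.

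A few listed markers of cell types passed the test, all in comparisons that use TEN-160. Of 6 lymphocyte, 3 cholangiocyte and 3 blood markers tested, 0 passed in any comparison. Hepatocyte markers were bright on all arrays, with 7 of 8 listed genes on the array and all 7 tested. At 160 kcal 1 of the 7 was higher with ethanol and 1 lower: Cyp2e1, an ethanol-oxidising enzyme, by 0.46 (adjusted p = 0.0413), and Ttr, transthyretin (−0.36, adjusted p = 0.0258). The call of Cyp2e1 was lost in 15 of 22 alternatives, among them leaving out any 1 EtOH-160 array, TEN-160 replicates 1 or 3, TEN-220 replicates 2 or 3 or EtOH-220 replicate 2 (adjusted p up to 0.324), and its other probe sets gave 0.67 (adjusted p = 0.014) and 0.14 (adjusted p = 0.574). The other probe set of Ttr gave 0.32 (adjusted p = 0.113). Of 5 stellate cell markers tested, ethanol at 160 kcal gave 0 higher and 1 lower, the collagen gene Col1a1 (−2.29, adjusted p = 0.0288), whose 3 other probe sets gave −0.49 to −0.14 and did not pass. Of 5 endothelial markers, 0 were higher and 1 lower, the hyaluronan receptor Lyve1 (−0.70, adjusted p = 0.0332). Both calls were lost without TEN-160 replicate 3 or EtOH-160 replicates 1, 3 or 4, and that of Lyve1 also without TEN-160 replicate 1 (adjusted p up to 0.129 and 0.15). In TEN-160 against TEN-220, 2 of the 5 endothelial markers were higher: Kdr, a receptor for vascular endothelial growth factor, by 1.55 (adjusted p = 0.0114), which passed in each of 22 alternatives, and Lyve1 by 0.87 (adjusted p = 0.0202), which was lost without TEN-220 replicate 3 or TEN-160 replicate 3 (adjusted p up to 0.0806). There 1 hepatocyte marker was higher and 1 lower, Apob by 1.08 (adjusted p = 0.04) and Cyp2e1 (−0.53, adjusted p = 0.0356). Both of these calls were lost without TEN-220 replicates 1 or 2 or TEN-160 replicates 1 or 3, that of Cyp2e1 also without TEN-220 replicate 3, and that of Apob also without TEN-160 replicate 2 or EtOH-160 replicates 3 or 4 (adjusted p up to 0.204 for Cyp2e1 and 0.166 for Apob). In TEN-160 against TEN-220 other probe sets of Apob gave 2.13, 1.605, 0.51 and −0.02 (adjusted p = 0.00245, 0.00964, 0.53 and 0.97). Those of Cyp2e1 gave −0.59 and −0.35 (adjusted p = 0.0401 and 0.174). Of all tested probe sets, ethanol at 160 kcal gave 11.9% higher and 10.4% lower, and TEN-160 against TEN-220 gave 7.84% higher and 9.94% lower. The part of these cell types in the differences of the members was not tested. The arrays hold bulk liver RNA, so fewer cells of a type and less RNA per cell cannot be told apart.

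**Figure D1:**
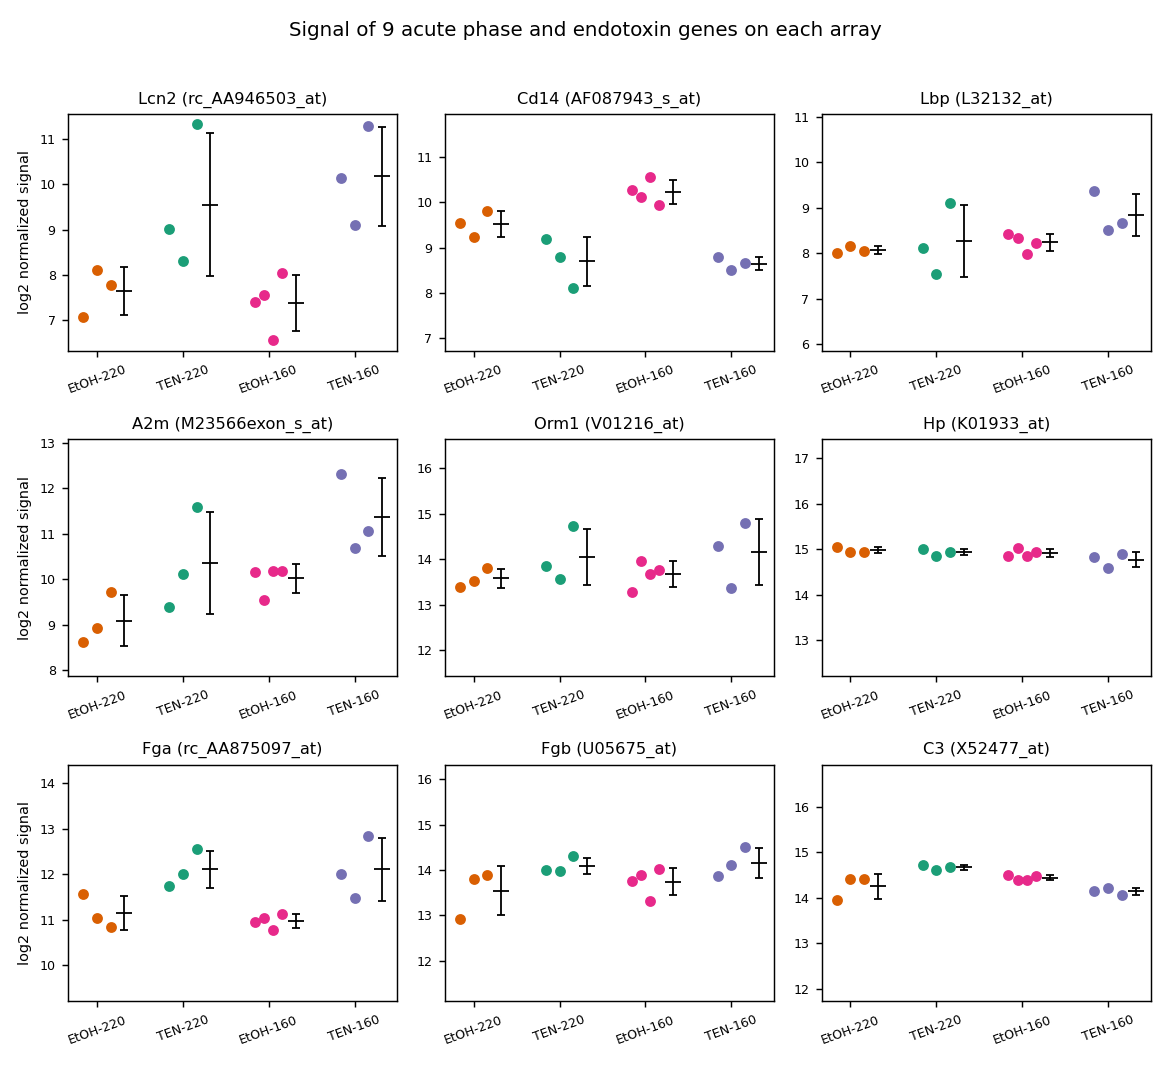
Signal of 1 probe set for each of the 9 genes on each of the 13 arrays. The vertical axes show log2 normalized signal, each spanning the same number of log2 units, points are arrays, and bars are the mean ± SD of the group (n = 3, 3, 4 and 3 from left to right). Lcn2 was lower and Cd14 higher on every ethanol array than on every array without ethanol. Hp and C3 spread over a small part of the axis, after a normalization that sets signals of the same rank equal.

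Upstream sequence is shown for the genes of secreted acute phase proteins that the comparisons below set side by side, since C/EBP and STAT factors are known to act at such promoters. RefSeq's table for build GRCr8 held a promoter window for 6 of the 9 genes, and for 5 of these it reached bases upstream of the annotated gene. The Cd14 window lay inside the annotated gene and is not shown; Lbp, A2m and Hp are named only. Capitals mark letters that match 1 of 4 motifs on either strand: TTGCNNAA (C/EBP), CTGGGAA (interleukin-6 response element), TTCNNNGAA (STAT) and GTTAAT (HNF1). No 2 matches overlapped. Sequences run 5′ to 3′ on the gene's strand and end at the base before the annotated gene.
Lcn2 (chr3:36081852-36082030, minus strand): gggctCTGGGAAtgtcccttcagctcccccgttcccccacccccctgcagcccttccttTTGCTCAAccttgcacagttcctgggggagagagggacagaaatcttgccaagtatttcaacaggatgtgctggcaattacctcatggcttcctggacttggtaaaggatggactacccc
Orm1 (chr5:81788259-81788508, plus strand): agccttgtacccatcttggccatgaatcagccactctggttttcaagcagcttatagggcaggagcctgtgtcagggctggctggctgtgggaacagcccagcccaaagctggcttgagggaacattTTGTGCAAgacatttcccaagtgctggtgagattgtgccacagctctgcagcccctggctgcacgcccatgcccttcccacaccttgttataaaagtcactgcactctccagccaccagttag
Fga (chr2:170671919-170672168, plus strand): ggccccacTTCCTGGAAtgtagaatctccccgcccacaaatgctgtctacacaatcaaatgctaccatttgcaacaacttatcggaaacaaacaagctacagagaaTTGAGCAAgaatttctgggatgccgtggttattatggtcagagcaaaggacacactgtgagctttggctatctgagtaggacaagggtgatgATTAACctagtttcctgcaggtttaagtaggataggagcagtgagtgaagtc
Fgb (chr2:170700876-170701125, minus strand): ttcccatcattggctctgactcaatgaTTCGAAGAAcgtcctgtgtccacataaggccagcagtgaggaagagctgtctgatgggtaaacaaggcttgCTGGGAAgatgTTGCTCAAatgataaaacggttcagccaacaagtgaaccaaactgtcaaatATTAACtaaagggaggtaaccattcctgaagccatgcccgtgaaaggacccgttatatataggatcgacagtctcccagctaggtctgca
C3 (chr9:2201340-2201589, minus strand): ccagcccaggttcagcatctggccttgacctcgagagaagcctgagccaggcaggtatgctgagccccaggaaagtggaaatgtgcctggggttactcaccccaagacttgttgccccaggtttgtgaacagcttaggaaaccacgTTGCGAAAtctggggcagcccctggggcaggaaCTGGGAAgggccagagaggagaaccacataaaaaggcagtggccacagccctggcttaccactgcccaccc
Each of the 5 windows held 1 C/EBP match, a motif that 9.2% of 27457 promoter windows of 250 bases held. The interleukin-6 element occurred upstream of Lcn2, Fgb and C3 (9.33% of all windows), the STAT motif upstream of Fga and Fgb (7.52%), and the HNF1 motif upstream of Fga and Fgb (6.46%). The Lcn2 window is shorter, with 179 bases. A match describes letters in this window and is not evidence of binding.

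Cd14 (chr18:28609558-28611409, GRCr8) encodes the coreceptor that hands endotoxin to TLR4. On probe set AF087943_s_at its normalized signal was 743, 602 and 896 in EtOH-220, against 583, 446 and 278 in TEN-220. At the lower energy supply it was 1239, 1102, 1497 and 974 in EtOH-160, against 442, 362 and 404 in TEN-160. The 4 EtOH-160 arrays were the brightest of the 13, and the lowest ethanol array (602) lay above the highest array without ethanol (583). On AF087944mRNA_s_at the signal was 862, 794 and 1094 in EtOH-220, against 599.7, 509 and 462 in TEN-220. It was 904, 852, 1102 and 1022 in EtOH-160, against 574, 471 and 621 in TEN-160. The groups again did not overlap at either energy supply. The 2 probe sets correlated with r = 0.915 over the 13 arrays, and with r = 0.714 after each group's mean was subtracted; these are descriptions over arrays that share their labels.

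At 160 kcal Cd14 rose with ethanol on both probe sets. On AF087943_s_at the group means were 10.21 ± 0.26 in EtOH-160 and 8.65 ± 0.15 in TEN-160 on the log2 scale (SD, n = 4 and 3). The difference was 1.57 (standard error, SE, 0.237, limma adjusted p = 0.000723), a 2.96-fold higher signal. On AF087944mRNA_s_at it was 0.81 (SE 0.17, adjusted p = 0.00488), or 1.75-fold. At 220 kcal the differences were 0.82 (SE 0.254, adjusted p = 0.322) and 0.80 (SE 0.182, adjusted p = 0.194), and neither passed the test. Their unadjusted limma p were 0.00595 and 0.000598, against 1.3e-05 and 0.000324 at 160 kcal. The adjustment also depends on the other probe sets, of which 0.0191% passed at 220 kcal and 22.3% at 160 kcal. EtOH-160 against TEN-220 gave 1.51 (SE 0.237, adjusted p = 0.00547) and 0.89 (SE 0.17, adjusted p = 0.0166). When the TEN-160 arrays were left out of the fit, the adjusted p were 0.0126 and 0.0216. The difference on AF087944mRNA_s_at lost its call without TEN-220 replicate 2 (adjusted p = 0.0671), TEN-220 replicate 3 (0.0857), EtOH-160 replicate 3 (0.0572) or EtOH-160 replicate 4 (0.0506).

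The Cd14 probe sets gave unlike estimates of whether the ethanol difference was larger at 160 kcal. Neither estimate passed the test, and they were not compared with each other. The interaction, the ethanol difference at 160 kcal minus that at 220 kcal, was 0.74 on AF087943_s_at (SE 0.347, adjusted p = 0.207) and 0.00 on AF087944mRNA_s_at (SE 0.249, adjusted p = 0.997). At 160 kcal 0 of 10 tested Kupffer cell and macrophage markers were higher with ethanol and 3 were lower, where 11.9% of all tested probe sets were higher and 10.4% lower. Their part in the differences of Cd14 was not tested. These 3 were the class II antigen genes, on their brightest probe sets, RT1-Ba (−1.42, adjusted p = 0.00324), RT1-Da (−0.65, adjusted p = 0.00739) and RT1-Bb (−0.80, adjusted p = 0.0331). RT1-Bb lost its call without TEN-160 replicates 1 or 2 or EtOH-160 replicates 1, 3 or 4, with adjusted p up to 0.14 over all alternatives, and RT1-Da lost its call with median-centred values (adjusted p = 0.189). Other probe sets of RT1-Ba gave 0.15 and 0.28 (adjusted p = 0.84 and 0.508). The summed signal of the 11 listed genes on the array was 8109 to 10419 in EtOH-160 and 11999 to 13837 in TEN-160, and all 11 exceeded the background on at least 1 array. At 220 kcal it was 8448 to 13619 in EtOH-220 and 11293 to 12622 in TEN-220. The background was set at a signal of 44.0, the 95th percentile over 19 probe sets for bacterial and other foreign sequences.

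Lbp (chr3:167373786-167400941) encodes the plasma protein that carries endotoxin to CD14. Its signal on L32132_at was 257, 287 and 264 in EtOH-220, against 278, 187 and 554 in TEN-220. It was 343, 323, 253 and 297 in EtOH-160, against 662, 363 and 403 in TEN-160. The ethanol arrays of both energy supplies stayed within 253 to 343, while the arrays without ethanol ranged from 187 to 662. At 160 kcal the groups did not overlap, but the difference of −0.60 (SE 0.304, adjusted p = 0.172) did not pass the test, and at 220 kcal it was −0.19 (SE 0.325, adjusted p = 0.896). The second rests on TEN-220 replicate 3: without it the sign turned, at 0.24 (adjusted p = 0.84). Without TEN-160 replicate 1 the difference at 160 kcal was −0.34 (adjusted p = 0.508).

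Other genes of the endotoxin receptor pathway were sparse on this array. Of 24 listed, 10 had a probe set and 6 were tested. At 160 kcal 0 were higher with ethanol and 1 was lower, where 11.9% and 10.4% of all tested probe sets were so. Ccl2, the monocyte attractant, had a difference of −1.21 (SE 0.33, adjusted p = 0.019). That call was lost without TEN-160 replicate 3 or EtOH-160 replicate 3, with adjusted p up to 0.0832 over all alternatives. Between TEN-160 and TEN-220 Ccl2 was higher by 1.13 (adjusted p = 0.0405), a call that 11 of 22 alternatives lost, among them leaving out any 1 TEN-220 or TEN-160 array, EtOH-220 replicates 2 or 3 or EtOH-160 replicate 1 (adjusted p up to 0.135). Tlr4 itself was not tested: its brighter probe set exceeded the background on 4 of 13 arrays and reached 64.4. Ticam1, Ccl3 and Cxcl2 exceeded it on no array. At 220 kcal 0 of the 6 passed limma's test, and 2 had an unadjusted p under 0.05 (9.99% of all tested).

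Lcn2 (chr3:36078432-36081851) encodes lipocalin 2, a secreted protein that binds bacterial siderophores and is made by hepatocytes and neutrophils. Its signal on rc_AA946503_at was 135, 277 and 219 in EtOH-220, against 517, 317 and 2550.1 in TEN-220. It was 169, 189, 94.2 and 262 in EtOH-160, against 1116, 553 and 2496 in TEN-160. The ethanol arrays stayed within 94.2 to 277, and the arrays without ethanol ranged from 317 to 2550.1. The spread was wide without ethanol, where TEN-220 replicate 3 and TEN-160 replicate 3 were the 2 brightest arrays: the SD on the log2 scale was 0.528 in EtOH-220 and 1.57 in TEN-220, and 0.616 in EtOH-160 and 1.09 in TEN-160.

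At 160 kcal Lcn2 fell with ethanol, with a log2 difference of −2.78 (SE 0.63, adjusted p = 0.00739). The group levels, as geometric means, were 168 in EtOH-160 and 1155 in TEN-160, a 6.89-fold difference. At 220 kcal the levels were 202 in EtOH-220 and 747 in TEN-220; the difference of −1.89 (SE 0.674, adjusted p = 0.393) did not pass, and without TEN-220 replicate 3 it was −1.01. EtOH-160 against TEN-220 gave −2.16 (SE 0.63, adjusted p = 0.104), and −1.27 without TEN-220 replicate 3. The interaction was −0.89 (SE 0.923, adjusted p = 0.589), so no difference between the 2 ethanol effects was detectable with these arrays. The difference at 160 kcal was −2.23 without TEN-160 replicate 3 and −3.32 without TEN-160 replicate 2, the extremes when each array was left out, and its adjusted p stayed under the threshold whichever array was left out, at 0.0378 at most.

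Transcripts of 2 listed neutrophil genes, S100a9 and S100a8, were also highest on the 2 arrays with the most Lcn2. S100a9, a calcium-binding protein abundant in neutrophils, had signals of 63.6, 95.2 and 14.6 in EtOH-220, against 86.7, 73.1 and 192 in TEN-220. It had 14.0, 84.2, 16 and 47.1 in EtOH-160, against 176, 49.7 and 731 in TEN-160. TEN-160 replicate 3 and TEN-220 replicate 3 were the 2 brightest arrays, as for Lcn2. At 160 kcal S100a9 was lower with ethanol, with a difference of −2.60 (SE 0.885, adjusted p = 0.0498). That call was lost in 15 of 22 alternatives, among them without TEN-160 replicate 1 (0.103) or 3 (0.23), EtOH-160 replicate 1, 3 or 4, EtOH-220 replicate 1 or 2, or any 1 TEN-220 array. S100a8, its partner, exceeded the background on 4 arrays and lay at the floor on 5; its highest signals were 211 on TEN-160 replicate 3 and 108 on TEN-220 replicate 3.

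Over the 13 arrays the log2 signal of Lcn2 correlated with that of S100a8 with r = 0.892 and with that of S100a9 with r = 0.814. After each group's mean was subtracted these were 0.715 and 0.639. Of 15 listed neutrophil genes 7 were on the array and 1 was tested, and the listed genes Itgam and Mmp8 exceeded the background on no array. The summed signal of the 7 lay between 139 and 213 in EtOH-220, against 246 to 440 in TEN-220. It lay between 141 and 322 in EtOH-160, against 177 to 1039 in TEN-160. S100a9 and S100a8 are part of these sums, and no correlation with Lcn2 is given for the other listed genes. The part of neutrophils in the Lcn2 difference was not tested.

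**Figure D2:**
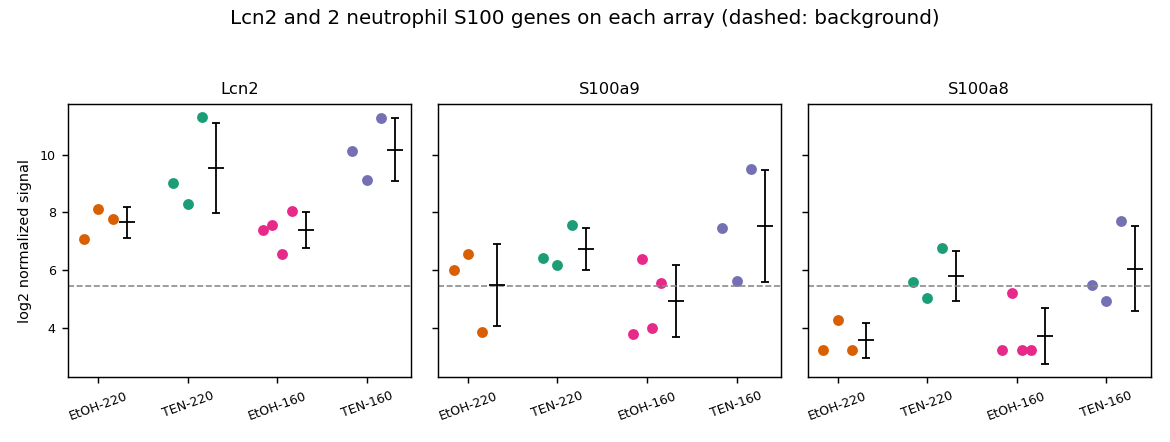
Log2 normalized signal of Lcn2 and of the neutrophil genes S100a9 and S100a8 on each of the 13 arrays. Points are arrays, bars are the mean ± SD of the group, and the dashed line is the background of 44.0. The 2 brightest arrays, TEN-220 replicate 3 and TEN-160 replicate 3, are the same in all 3 panels.

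A2m (chr4:156570163-156619870) encodes alpha-2-macroglobulin, a protease inhibitor and a major acute phase protein of the rat. On M23566exon_s_at its signal was 396, 488 and 841 in EtOH-220, against 670.0, 1104 and 3101 in TEN-220. It was 1150.05, 748, 1155 and 1169 in EtOH-160, against 5143, 1657 and 2155 in TEN-160. The groups did not overlap at 160 kcal and overlapped at 220 kcal. On rc_AA900582_at it was 240.4, 236 and 293 in EtOH-220, against 259, 220.3 and 720.5 in TEN-220. It was 342, 252, 315 and 436 in EtOH-160, against 1005, 626 and 551 in TEN-160, again with no overlap at 160 kcal alone.

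At 160 kcal A2m fell with ethanol on rc_AA900582_at, with a difference of −1.09 (SE 0.349, adjusted p = 0.038). The call depended on single arrays: without TEN-160 replicate 1 the difference was −0.83 (adjusted p = 0.153), and it was also lost without TEN-160 replicate 2 or EtOH-160 replicates 1, 2 or 3 (adjusted p from 0.0602 to 0.0907), with no filter (0.0891) and with median-centred values (0.0674). The difference on M23566exon_s_at was larger, −1.35 (SE 0.471), and just missed the threshold (adjusted p = 0.0552). It passed without TEN-220 replicate 1 (0.039) or 3 (0.0222), or without TEN-160 replicate 2 (0.0379). M22670cds_g_at, at 44.9 to 104 on the ethanol arrays and 50.3 to 239 on the others, had −1.01 (adjusted p = 0.187), and −1.61 without TEN-160 replicate 3 (adjusted p = 0.0439). TEN-160 replicate 1, the brightest array on M23566exon_s_at, carried much of both: without it the differences were −0.86 on M23566exon_s_at (adjusted p = 0.235) and −0.48 on M22670cds_g_at (adjusted p = 0.581). X13983mRNA_at showed none of this, with 238 to 555 on the ethanol arrays, 231 to 498 on the others and a difference of 0.31 (adjusted p = 0.531).

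At 220 kcal the 4 differences of A2m were −1.27, −0.73, −0.44 and −0.16, with adjusted p of 0.45 to 0.915, on M23566exon_s_at, M22670cds_g_at, rc_AA900582_at and X13983mRNA_at in this order. Without TEN-220 replicate 3 the first 3 were −0.66, −0.31 and 0.09, and without EtOH-220 replicate 1 the last was 0.17, so the sign of the last 2 rested on 1 array each. Of the 2 dim probe sets, M22670cds_at exceeded the background on 2 arrays, with 112.6 on TEN-160 replicate 1 and 70.6 on TEN-220 replicate 3, which were also the brightest arrays of their groups on M23566exon_s_at and rc_AA900582_at. The other, rc_AI113046_at, was at most 21.0. The probe sets of this gene thus disagree, and a value of A2m is a value of its probe set.

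Orm1 (chr5:81788509-81791661) encodes alpha-1-acid glycoprotein, a drug-binding plasma protein. Its signal was 10784, 11823 and 14396 in EtOH-220, against 14761, 12162 and 27415 in TEN-220. It was 9931, 15903, 13067 and 13980.1 in EtOH-160, against 20179, 10567 and 28486 in TEN-160. The groups overlapped at both energy supplies, and the 2 arrays brightest for Lcn2 were the brightest here. The differences were −0.47 (SE 0.334, adjusted p = 0.672) at 220 kcal and −0.49 (SE 0.312, adjusted p = 0.288) at 160 kcal. Without TEN-160 replicate 2, the dimmest of its group, the difference at 160 kcal was −0.88 and passed (adjusted p = 0.045). Without TEN-160 replicate 3, the brightest, it was −0.16 (adjusted p = 0.771), and without TEN-220 replicate 3 the difference at 220 kcal was −0.13 (adjusted p = 0.946).

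Hp (chr19:54449151-54453701) encodes haptoglobin, which binds free haemoglobin. Its signal lay between 29593 and 34116 on the ethanol arrays and between 24466 and 33067 on the others, and its differences were 0.04 (SE 0.105) at 220 kcal and 0.15 (SE 0.0983) at 160 kcal. The 95% interval of the second was −0.06 to 0.36. Its place among the 8740 signals of an array was between 8 and 34 from the top, and whether signals that high still follow the amount of RNA was not tested. Quantile normalization sets signals of the same rank equal. Deposited signals of 35509, 30874, 32646 and 34464, on TEN-220 replicate 3, EtOH-220 replicates 2 and 3 and EtOH-160 replicate 4, all became 31567. The part of this step in the small spread was not tested.

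Fga (chr2:170672169-170679572) and Fgb (chr2:170693966-170700875) encode 2 of the chains of fibrinogen and lie next to each other. On rc_AA875097_at the signal of Fga was 3033, 2102 and 1817 in EtOH-220, against 3431, 4139 and 6009 in TEN-220. It was 1987, 2096, 1747 and 2231 in EtOH-160, against 4121, 2848 and 7393 in TEN-160. The groups did not overlap at either energy supply, and the 4 EtOH-160 arrays lay close together. On M35601_at the signal was 18325, 14288 and 16497 in EtOH-220, against 16055, 15738 and 19722 in TEN-220. It was 14214, 14761, 12825 and 16497 in EtOH-160, against 20934, 19247 and 22786 in TEN-160. There the groups overlapped at 220 kcal and not at 160 kcal.

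At 160 kcal Fga fell with ethanol on all 3 probe sets, which measure 1 gene. The difference was −1.14 on rc_AA875097_at (SE 0.284, adjusted p = 0.012), −0.61 on M35601_g_at (SE 0.161, adjusted p = 0.0163) and −0.53 on M35601_at (SE 0.127, adjusted p = 0.00991). Without TEN-160 replicate 3 the first was −0.77 (adjusted p = 0.0518) and the second −0.53 (adjusted p = 0.0659). At 220 kcal the differences were −0.96, −0.31 and −0.07 (adjusted p = 0.327, 0.581 and 0.909). Against TEN-220, EtOH-160 differed by −1.13 on rc_AA875097_at (SE 0.284, adjusted p = 0.056), −0.31 on M35601_g_at (adjusted p = 0.415) and −0.23 on M35601_at (adjusted p = 0.446). The first of these passed without EtOH-220 replicate 1, TEN-160 replicate 2 or TEN-160 replicate 3 (adjusted p of 0.0191 to 0.0455), and when the TEN-160 arrays were left out of the fit (0.0238).

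Fgb had signals on U05675_at of 7825, 14396 and 15300.2 in EtOH-220, against 16497, 16085 and 20179 in TEN-220. It had 13783, 15097, 10238 and 16587 in EtOH-160, against 14856, 17747 and 23296 in TEN-160. The groups did not overlap at 220 kcal and overlapped at 160 kcal. The differences were −0.55 (SE 0.249, adjusted p = 0.497) and −0.42 (SE 0.233, adjusted p = 0.219), and neither passed. The second passed with trimmed-mean scaling, at −0.73 (adjusted p = 0.043). The other Fgb probe set, M35602_at, lay between 24.1 and 74.2 on all arrays, around the background.

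C3 (chr9:2174412-2201339) encodes the central component of complement, and 1 of its 2 probe sets was lower at the lower energy supply in rats without ethanol. On X52477_at the signal was 15738, 21744 and 21975 in EtOH-220, against 27001, 24985 and 26369 in TEN-220. It was 23296, 21445, 21615 and 22924 in EtOH-160, against 18131, 18948 and 17187 in TEN-160. On this normalized scale the ethanol groups lay below TEN-220 and, but for EtOH-220 replicate 1, above TEN-160. In the deposited signals EtOH-160 (19033 to 25123) and TEN-160 (21203 to 22678) overlapped. TEN-160 fell below TEN-220, with a difference of −0.53 (SE 0.124, adjusted p = 0.0104), a 1.44-fold lower signal. Under trimmed-mean scaling this was −0.26 (adjusted p = 0.231), and the call was lost.

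The ethanol difference of C3 on X52477_at was −0.41 at 220 kcal (SE 0.124, adjusted p = 0.298) and 0.30 at 160 kcal (SE 0.116, adjusted p = 0.0768). The interaction of 0.72 (SE 0.17, adjusted p = 0.0249) passed. It was lost without TEN-220 replicate 1 (0.0682) or 3 (0.0503), and in 4 other alternatives, with adjusted p up to 0.168. M29866_s_at showed none of this: its signal was 27001 to 33067 on the ethanol arrays and 25673 to 35027 on the others, its interaction was 0.10 (adjusted p = 0.757), and its place among the signals of an array was between 6 and 29 from the top.

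**Figure D3:**
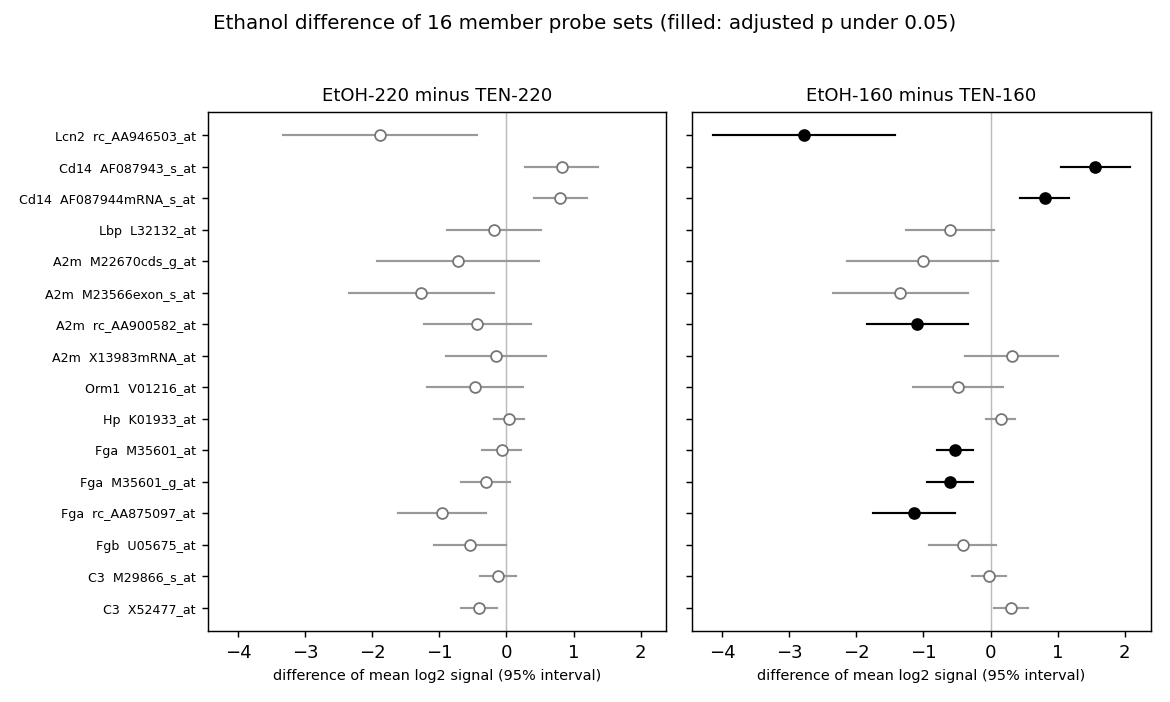
Ethanol differences of the 16 tested probe sets at 220 kcal (left) and at 160 kcal (right). The horizontal axes show the difference of mean log2 signal with its 95% interval, and filled points have an adjusted p under 0.05. At 160 kcal 7 of 16 points are filled, 2 for Cd14 on the right of 0 and 5 on the left for Lcn2, Fga and A2m, and at 220 kcal 0 are filled.

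Over the 16 tested probe sets, ethanol at 160 kcal gave 2 higher and 5 lower, where 22.3% of all tested probe sets passed in either direction, 11.9% higher and 10.4% lower. The groups did not overlap in 3 higher and 7 lower, where 15.8% of all were higher and 15.2% lower in this way. An unadjusted p under 0.05 was reached by 9 of 16 (35.6% of all). The median difference was −0.51, against 0.02 for all tested probe sets; under trimmed-mean scaling these medians were −0.73 and −0.07, and with median-centred values −0.53 and 0.13. Ethanol at 220 kcal gave 0 of 16, where 0.0191% of all tested passed with limma; 7 of 16 had an unadjusted p under 0.05, and 9.99% of all did. The median difference there was −0.36, against −0.04 for all. The groups did not overlap in 2 higher, both for Cd14, and 4 lower, 1 probe set each of Lcn2, Fga, Fgb and C3, where 7.93% and 9.9% of all did so.

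Few of these probe sets passed in the comparisons of energy supply, and a difference that did not pass is not shown to be absent. TEN-160 against TEN-220 gave 1 of 16, the C3 probe set, which was lower, where 17.8% of all passed, 7.84% higher and 9.94% lower. An unadjusted p under 0.05 was reached by 3 of 16 (31.5% of all), and the groups did not overlap in 0 higher and 1 lower (17.3% and 19.2% of all). A2m on rc_AA900582_at was 1.03 higher in TEN-160 (SE 0.373, adjusted p = 0.0746), on M23566exon_s_at 1.00 higher (adjusted p = 0.193), and Lbp 0.58 higher (SE 0.325, adjusted p = 0.238); none passed. Without TEN-220 replicate 3, where these genes were brightest in that group, all 3 passed, at 1.56, 1.62 and 1.01 (adjusted p = 0.00389, 0.0301 and 0.0273), and the count was 4. Without another array of TEN-220 they were as low as 0.70 (replicate 2, adjusted p = 0.273), 0.51 (replicate 1, adjusted p = 0.555) and 0.23 (replicate 2, adjusted p = 0.688). EtOH-160 against EtOH-220 gave 0 of 16 with limma, where 0.286% of all passed, 0.21% higher and 0.0763% lower. There 1 of 16 had an unadjusted p under 0.05 (11.1% of all), and the same probe set alone did not overlap, being higher (5.78% of all were so, and 4.42% lower): Cd14 on AF087943_s_at, with 0.69 (SE 0.237, adjusted p = 0.265). EtOH-160 against TEN-220 gave 2 of 16, both for Cd14 and both higher, where 2.23% of all passed, 1.33% higher and 0.896% lower. An unadjusted p under 0.05 was reached by 4 of 16 (13.8% of all), and the groups did not overlap in 2 higher and 4 lower (7.8% and 8.96% of all). The interaction gave 1 of 16, the C3 probe set, with a positive value, where 7.13% of all passed, 4.04% positive and 3.09% negative; 2 of 16 had an unadjusted p under 0.05 (24.4% of all).

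**Figure D4:**
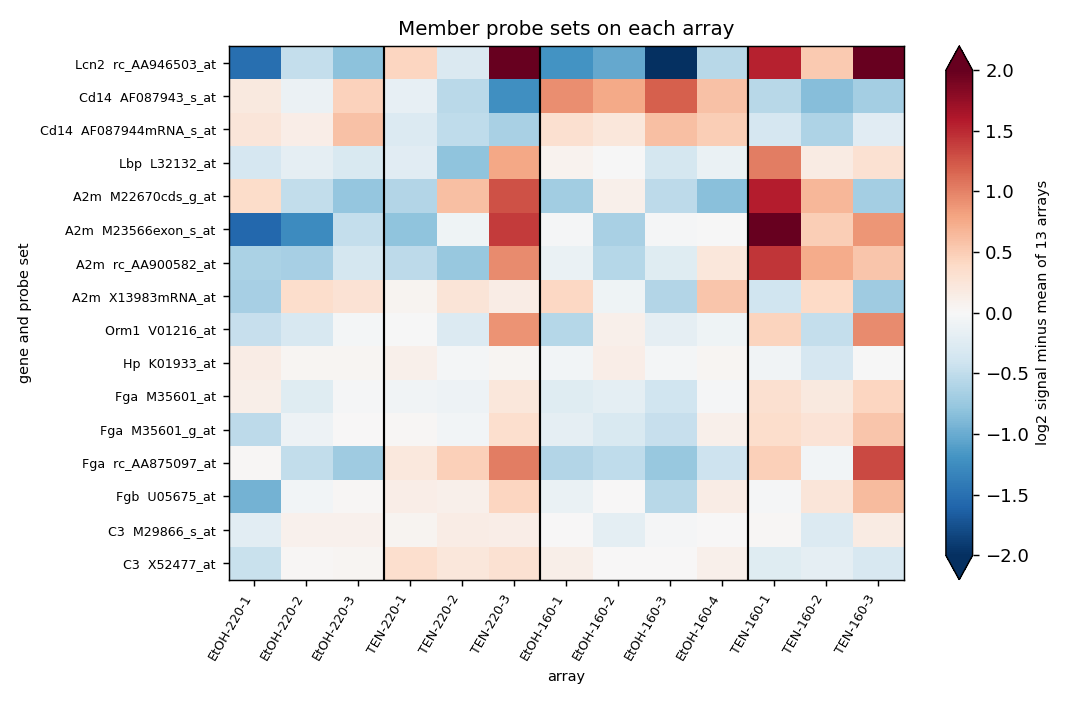
Log2 normalized signal of the 16 tested probe sets on each array, minus the mean of the 13 arrays; rows are probe sets, columns are arrays by group, and colours end at differences of 2 in either direction. The highest value of Lcn2, Lbp, Orm1, each Fga and 3 of the 4 A2m probe sets is on TEN-220 replicate 3 or a TEN-160 array, and the highest values of both Cd14 probe sets are on ethanol arrays.

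Single arrays carried much of the spread. TEN-220 replicate 3 was the highest of its group in 10 of the 16 probe sets, whereas it was the highest in 35.5% of all tested. TEN-160 replicate 3 was the highest of its group in 9 of 16 (38.4% of all), and TEN-160 replicate 2 the lowest in 11 of 16 (35.7% of all). Some pairs of genes were high and low on the same arrays and others were not: of 109 pairs of probe sets of different genes, 50 had a correlation under 0. Lcn2 correlated with Fga on M35601_g_at with r = 0.911 over 13 arrays (0.8 after group means were subtracted), with Orm1 with r = 0.821 (0.84), and Lbp with A2m on rc_AA900582_at with r = 0.893 (0.841). Lcn2 and Cd14 on AF087943_s_at had r = −0.85 (−0.611). Lcn2 had r = −0.18 with Hp and −0.111 with A2m on X13983mRNA_at. A2m on rc_AA900582_at had r = −0.493 with Hp, and Fga on M35601_at −0.468 with C3 on X52477_at. These are descriptions over arrays that share their group and scaling.

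The genes whose signal was most like a member's over the 13 arrays were ranked by Pearson's r of log2 signal. For Lcn2 these were C9, a component of the membrane attack complex, with r = 0.943 (0.875 after group means were subtracted), Fga with 0.911 and Baat with 0.891. For Fga on M35601_g_at they were C9 with 0.925, Lcn2 with 0.911 and Serpina10 with 0.896, and for Fgb Serpina10 with 0.908, Zp1 with 0.908 and Samd1 with 0.886. For Lbp they were Azgp1 with 0.897, A2m with 0.893 and Cpt1b with 0.817, and for A2m on M23566exon_s_at Azgp1 with 0.876, C8b with 0.864 and Efna1 with 0.823. For Orm1 they were Igll1 with 0.879, Renbp with 0.856 and Ehmt2 with 0.827, and for Hp Gabrr1 with 0.904, Dock8 with 0.87 and Vhl with 0.87. For C3 on M29866_s_at they were Ercc1 with 0.857, Ghrh with 0.855 and Psen2 with 0.85. For Cd14 they were Cyp3a23-3a1 (0.908), Emp1 (0.865) and Cps1 (0.859), which fell to 0.571, 0.533 and 0.642 after group means were subtracted.

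Of 46 other positive acute phase and complement genes listed, 26 were on the array and tested. At 160 kcal 0 were higher and 7 lower with ethanol, where 11.9% of all tested probe sets were higher and 10.4% lower, and the median difference was −0.24, against 0.02 for all. Mbl1, mannose-binding lectin, had a difference of −1.21 (SE 0.189, adjusted p = 0.000866), C4bpb, a subunit of the C4b-binding protein, −0.88 (SE 0.163, adjusted p = 0.00217), and Cp, the copper carrier ceruloplasmin, −0.60 (SE 0.117, adjusted p = 0.0031). All 3 kept an adjusted p under 0.05 in each of 22 alternatives. The probe sets of Cp disagreed, however: on Y12178_at the difference was 0.83 (adjusted p = 0.00991) and on rc_AA817854_s_at −1.41 (adjusted p = 0.00764). The second Mbl1 probe set gave −0.30 (adjusted p = 0.269). At 220 kcal 0 of the 26 passed limma's test, and 3 had an unadjusted p under 0.05 (9.99% of all tested).

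In TEN-160 against TEN-220, where 7.84% of all tested probe sets were higher and 9.94% lower, the 26 genes gave 3 higher, Mbl1 (1.30, adjusted p = 0.000919), C4bpb (0.63, adjusted p = 0.0242) and Apcs (0.43, adjusted p = 0.0294), and 1 lower, Itih4 (−0.36, adjusted p = 0.0486). Of the 4, Mbl1 alone kept its call when each array was left out in turn. C4bpb lost it without TEN-220 replicates 1 or 2 or TEN-160 replicates 1 or 3 (adjusted p up to 0.104 over all alternatives), Apcs without TEN-220 or TEN-160 replicates 1 or 2 (up to 0.268), and Itih4 without most single arrays (up to 0.834). This comparison and ethanol at 160 kcal share the TEN-160 arrays. In Mbl1 these stood apart from every other array, with 5747, 4926 and 4669 against 1703 to 2939 on the other 10.

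Of 10 negative acute phase genes tested, which fall in inflammation, 1 was higher and 2 were lower with ethanol at 160 kcal, and the median difference was 0.09. Among all tested probe sets 11.9% were higher and 10.4% lower, with a median of 0.02. Rbp4, the retinol carrier, was higher by 0.60 (SE 0.119, adjusted p = 0.00354), a call lost under trimmed-mean scaling (adjusted p = 0.0709), and its probe set M10934_s_at gave −0.54 (adjusted p = 0.0358). Serpina7, the thyroxine-binding globulin, was lower (−1.87, SE 0.422, adjusted p = 0.00729), as was Ttr, transthyretin (−0.36, SE 0.104, adjusted p = 0.0258). Ttr lost its call without TEN-160 replicates 1 or 2 or EtOH-160 replicates 1 or 4 (adjusted p up to 0.0927 over all alternatives), and its other probe set, rc_AA945169_at, gave 0.32 (adjusted p = 0.113). At 220 kcal 0 passed limma's test, and 0 had an unadjusted p under 0.05 (9.99% of all tested). In TEN-160 against TEN-220, Serpina7 was higher by 2.54 (adjusted p = 0.0021) and Rbp4 lower (−0.52, adjusted p = 0.0132). The call of Rbp4 was lost without TEN-220 replicate 1 and under trimmed-mean scaling (adjusted p up to 0.197).

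Of the genes that signal or transcribe the response, 31 of 39 listed were on the array and 25 were tested. At 160 kcal 3 were higher and 4 lower with ethanol on their brightest probe sets, where 11.9% and 10.4% of all tested probe sets were so, and their median difference was −0.00 against 0.02 for all. The 3 that were higher are C/EBP factors: Cebpa by 0.84 (SE 0.139, adjusted p = 0.00117), Cebpd by 1.07 (SE 0.201, adjusted p = 0.00243) and Cebpb by 0.62 (SE 0.137, adjusted p = 0.00656). All 3 kept an adjusted p under 0.05 in each of 22 alternatives. A second tested Cebpd probe set gave −0.51 (adjusted p = 0.339), the second of Cebpa 1.07 (adjusted p = 0.349) and the second of Cebpb 1.66 (adjusted p = 0.00311). The cytokine genes Il18 and Il1b were lower, with differences of −1.19 (SE 0.224, adjusted p = 0.0024) and −1.59 (SE 0.304, adjusted p = 0.00271), and they passed in each of 22 alternatives as well. A second Il18 probe set gave 0.08 (adjusted p = 0.835). Il1a, another cytokine gene, was higher by 1.63 on D00403_at (adjusted p = 0.00291) and had −0.65 on its brightest probe set, D00403_g_at (adjusted p = 0.166). The others that were lower were Il1r2 and Nfkb1 (−0.64 and −0.53, adjusted p = 0.0446 and 0.041), whose calls were lost in 15 and 13 of 22 alternatives (adjusted p up to 0.188 and 0.206), including without most single arrays. Il6 and Tnf, the cytokines that start the response, exceeded the background on 1 array each.

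On their brightest probe sets the C/EBP factors were lowest in TEN-160. On X60769mRNA_at Cebpb had 1249, 1078 and 945 in EtOH-220, against 1845, 1959 and 1667 in TEN-220. It had 1145, 1269, 1260.0 and 1317 in EtOH-160, against 872, 787 and 779.8 in TEN-160. The difference between TEN-160 and TEN-220 was −1.17 (SE 0.146, adjusted p = 0.000276), and the ethanol difference at 220 kcal was −0.75 (SE 0.146, adjusted p = 0.0897). In TEN-160 against TEN-220, 4 of the 25 genes were higher and 4 lower, where 7.84% and 9.94% of all tested probe sets were so. Socs2, a suppressor of cytokine signalling, was higher by 1.68 (adjusted p = 0.00582) and Tnfrsf1a, a receptor for tumour necrosis factor, lower (−1.45, adjusted p = 0.00224). At 220 kcal 0 of the 25 passed limma's test, and 3 had an unadjusted p under 0.05 (9.99% of all tested). In EtOH-160 against TEN-220, 1 of the 25 was higher and 0 lower, where 1.33% and 0.896% of all tested probe sets were so. It was Il6r, the interleukin-6 receptor, higher by 0.90 (SE 0.205, adjusted p = 0.0362). That call was lost in 11 of 23 alternatives (adjusted p up to 0.164), among them leaving out TEN-220 replicates 2 or 3, EtOH-220 replicates 2 or 3, or EtOH-160 replicates 3 or 4.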

How the data were processed

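Linear intensity was the unit the authors deposited, computed with MAS5 per the submitters' processing notes, whose version and settings are not given in the sources used here. Its 2%-trimmed mean over all probe sets was 499.4 to 500.0 on 12 arrays and 132.7 on TEN-220 replicate 1. The 8740 probe sets other than controls were quantile normalized together, which brings that array onto the scale of the others. Signals under the 10th percentile (9.34) were set to it, values were taken to log2, and the 40% with the lowest mean were dropped. Of the probe sets, 7006 name 1 gene.

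Means of 4 groups were fitted by limma 3.58.1 in R 4.3.3 (eBayes with trend). Tests were two-sided and Benjamini-Hochberg adjusted over the 5244 tested probe sets of each of 6 comparisons. A difference is a difference of mean log2 signal, and a list gene entered by its brightest probe set. Named genes are the 9 members, up to 3 higher and 3 lower called genes of a list by smallest p, list genes at the background, and the 3 genes most like a member. The members, lists and motifs were chosen with earlier results of these data known. In simulated data with 200 of 5244 probe sets changed, 58% of 2-fold and 92% of 4-fold changes were recovered at 160 kcal. At 220 kcal these were 44% and 88%. The simulations gave 137 and 133 calls and the real comparisons 1168 and 1, so these rates do not measure the power of the real comparisons. The number of arrays limits the precision. Alternatives changed the scaling, floor, filter, variance model, weights, block and arrays. Positions and promoters are RefSeq's (GRCr8). Plots used matplotlib 3.10.9 in Python 3.11.15.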

Additional observations from a re-analysis of the deposited data

Results flagged for a closer look

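Among the 16 groups of 4 arrays that the 16 tested probe sets form, all in EtOH-160, 2 had an array far from the other 3 by Dixon's test, which chance alone gives in about 1 of 20 groups. For A2m on M23566exon_s_at, EtOH-160 replicate 2 had a signal of 748 and the other 3 arrays 1150.05 to 1169; its gap was 0.963 of the group's range on the log2 scale. For C3 on M29866_s_at, the same array had 27219 and the others 30661 to 31178, a gap of 0.877 of the range. Before normalization the deposited signals of EtOH-160 replicates 1 to 4 on this probe set were 32958, 27519, 25605.5 and 34055. There replicate 3 was the lowest, so replicate 2 stood apart on the normalized scale only.

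With the processing described above, the ethanol difference of C3 on X52477_at differed between the energy supplies. The interaction was 0.72 on the log2 scale (adjusted p = 0.0249), with a higher signal in all 4 EtOH-160 arrays than in all 3 TEN-160 arrays and a lower signal in all 3 EtOH-220 arrays than in all 3 TEN-220 arrays. That holds for normalized signals: in the deposited signals EtOH-160 (19033 to 25123) and TEN-160 (21203 to 22678) overlapped. The other C3 probe set had an interaction of 0.10 (adjusted p = 0.757). The call on X52477_at was lost in 6 of 21 alternatives, among them trimmed-mean scaling (0.45, adjusted p = 0.168). It also uses the TEN-160 arrays, which differed from the others as a group.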

How the results depend on the processing

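Each of the 96 member differences was recomputed under up to 23 alternatives, 2144 values in all: 2102 stayed on their side of the threshold, 20 lost a call and 22 gained one. The sign changed in 93, none of them called in either fit. The 46 called list differences, an addition made after seeing the data, were recomputed in 1013 values, of which 209 lost the call and 0 changed sign. Ethanol at 160 kcal had 6 to 9 member probe sets called in place of 7 (6 to 8 without 1 array), and ethanol at 220 kcal and energy with ethanol had 0 under each alternative. Energy without ethanol had 1, against 3 with array weights and 1 to 4 without 1 array. Ethanol and low energy together had 2, against 1 to 3 without 1 array. The interaction had 1, against 0 under trimmed-mean scaling, no filter, no variance trend and the replicate block, and 0 to 1 without 1 array. Replicate numbers did not pair the samples (correlations of deviations −0.112 to 0.0853); with the replicate block 7 member probe sets were called at 160 kcal and the C3 interaction had an adjusted p of 0.0618.

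Over all probe sets, without 1 array, the counts were 0 to 13 in place of 1 for ethanol at 220 kcal, 542 to 1058 in place of 932 for energy without ethanol, 4 to 52 in place of 15 for energy with ethanol, 38 to 150 in place of 117 for both together and 132 to 344 in place of 374 for the interaction. Other settings gave 0 (no filter) to 16 (array weights) for ethanol at 220 kcal, 0 (no filter), 2 (replicate block) and 6 (2 groups alone) for energy with ethanol, and 58 (replicate block), 60 (no filter), 68 (no variance trend) and 289 (array weights) for both together. The cause of these moves was not tested. The number of arrays limits the small differences. At 220 kcal 18% of simulated 1.5-fold changes were recovered, in data with 200 changed probe sets and 133 calls, where the real comparison had 1 call.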
